A study of Mus musculus with 16 samples.

Results

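Aminoacyl-tRNA synthetases attach each amino acid to its matching transfer RNA, the step that supplies the ribosome with charged tRNA. Cytosolic translation and mitochondrial translation use mostly separate enzymes, both encoded in the nucleus, and the mitochondrial set carries names ending in 2. Several cytosolic enzymes sit together in the multisynthetase complex, and many genes of the cytosolic set are known targets of ATF4, the transcription factor of the integrated stress response. Gars and Kars each encode a cytosolic and a mitochondrial form, Eprs charges both glutamate and proline, and Farsa and Farsb are the 2 subunits of a single phenylalanine enzyme.

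The members were 36 genes chosen by symbol, 20 cytosolic and 16 mitochondrial. A probe set naming the gene alone was found for 35 of them, 19 cytosolic and 16 mitochondrial, among 18193 genes with such a probe set. Dars, the cytosolic aspartate enzyme, was not analysed here, and Mars is listed on the array as Mars1. Each gene was read from its brightest single-gene probe set, by the mean over all arrays. All 35 lay above the median signal of the array on at least 4 of the 16 arrays, the filter that left 11451 genes to test.

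RNA came from mouse embryonic fibroblasts, connective tissue cells grown in serum, and was read on Affymetrix 3' expression arrays. The groups, of 4 culture plates each, were CHOP-/- cells given 1 µM MG132 for 8 hours, CHOP-/- cells left untreated, CHOP+/+ cells given 1 µM MG132 for 8 hours, and CHOP+/+ cells left untreated. MG132 inhibits the proteasome, and CHOP, encoded by Ddit3, is a transcription factor induced by stress. The labels of the untreated groups name both no treatment and a DMSO vehicle, and do not say from how many embryos or lines the cells of a genotype came, so p-values measure the spread between plates. Values are MAS5 signals on a linear scale, scaled by the authors to a common trimmed mean, and a signal is not compared between genes. Fold changes are on the scale of log2(signal + 16) with a standard error (SE) from limma, and "rose", "fell", "higher" and "lower" mean a Benjamini-Hochberg adjusted p under 0.05 over all 11451 genes.

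The targeted gene followed the genotype labels. Ddit3 gave 429.8, 394, 418 and 342 in MG132-treated CHOP-/- cells, against 382, 352, 393 and 343 in untreated CHOP-/- cells, a log2 change of 0.10 (SE 0.09) with limma adjusted p = 0.328, which passed at 0.25 both under quantile normalisation and under centring on the tested genes. It gave 8181, 6891, 8087 and 7739 in MG132-treated CHOP+/+ cells, against 887, 1054, 998 and 1127 in untreated CHOP+/+ cells, a change of 2.91 (SE 0.09). Median signals of the 16 arrays lay between 90.1 and 113, and arrays of a group correlated at 0.985 to 0.992 across genes. All 9 fibroblast markers listed were measured above the filter, but the genotypes differed in most. In CHOP-/- cells 2 were higher and 6 lower with MG132, and 3 higher and 4 lower without, where 58.8% and 55.6% of all genes differed. With MG132 1 rose and 6 fell in CHOP-/- cells, and 2 rose and 5 fell in CHOP+/+ cells, where 36.8% and 36.9% of all genes fell. Pdgfra averaged 118 in untreated CHOP-/- and 2351 in untreated CHOP+/+ cells. Thy1 averaged 2727 in untreated CHOP-/- and 227 in untreated CHOP+/+ cells. The 3 neural markers summed to 972 to 1565 in MG132-treated CHOP-/-, 1541 to 1912 in untreated CHOP-/-, 4207 to 4808 in MG132-treated CHOP+/+ and 5034 to 5925 in untreated CHOP+/+ cells. Sox2 was lower in CHOP-/- cells, at -3.62 (SE 0.09) with MG132 and -3.16 (SE 0.09) without. So was Map2, at -2.38 (SE 0.11) and -2.73 (SE 0.11). Nes went the other way, higher at 0.56 (SE 0.22) with MG132, while 0.15 (SE 0.22) without did not pass. The 3 fat cell markers summed to 320.5 to 392.1 in MG132-treated CHOP-/-, 326 to 449 in untreated CHOP-/-, 1038 to 1141 in MG132-treated CHOP+/+ and 1040.5 to 1086 in untreated CHOP+/+ cells. Of these, Pparg was lower in CHOP-/- cells, at -1.62 (SE 0.10) with MG132 and -1.69 (SE 0.10) without, as was Fabp4, at -1.49 (SE 0.18) and -1.02 (SE 0.18), and Adipoq was above the array median on 0 of 16 arrays. The lists for leukocytes, epithelium, endothelium and muscle each summed to at most 723 on any array. Ptprc, Itgam and Pecam1 lay above the array median on 0 of 16 arrays, but Csf1r and Epcam did on 16 of 16. Csf1r rose with MG132 by 0.52 (SE 0.16) in CHOP-/- and 0.47 (SE 0.16) in CHOP+/+ cells. Krt8 rose by 0.58 (SE 0.25) and 0.90 (SE 0.25), in the same order. Cd68 rose by 0.63 (SE 0.19) in CHOP+/+ cells only, and Kdr by 1.86 (SE 0.42) in CHOP-/- cells only. Epcam and Des passed in neither response. The part of the differing markers in the genotype contrasts was not tested, and in bulk RNA fewer cells of a type and less RNA per cell cannot be told apart.

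RefSeq promoter windows of GRCm38.p6, from 250 bases before to 50 bases after the transcript start, were at hand for 26 of the 35 genes. They were searched on both strands for TGATGNAA, the C/EBP-ATF response element that ATF4 reads, where N is any base. Of the 12 cytosolic enzymes with a window 5 held it, or 41.7%, of the 14 mitochondrial enzymes 0 did, and of all 27025 genes with a window 4.51% did. The narrower motif TGATGCAA, which the first contains, was in 4 of 12 cytosolic, 0 of 14 mitochondrial and 1.03% of all genes. The motif of NRF1, a factor that controls many mitochondrial genes, was in 3 of 12 cytosolic windows (Farsb, Kars and Tars), in 2 of 14 mitochondrial windows (Iars2 and Mars2) and in 5.19% of all. A match is a description of letters, and no factor binding was measured. The 5 windows that held TGATGNAA are printed here in gene direction. All 5 genes, which charge threonine, tyrosine, alanine, isoleucine and glycine, rose with MG132 in both genotypes. They are among the 13 of 19 measured cytosolic enzymes that did so, and whether the motif goes with the rise was not tested. Capitals mark the match, which lies on the opposite strand, and so reads as its reverse complement, in all but Yars. Counting the first transcribed base as 1, the matches start at -15 in Tars, at 4 in Yars, at -112 and 10 in Aars, at 8 in Iars and at -30 in Gars.
Tars, chr15:11399609-11399908, minus strand: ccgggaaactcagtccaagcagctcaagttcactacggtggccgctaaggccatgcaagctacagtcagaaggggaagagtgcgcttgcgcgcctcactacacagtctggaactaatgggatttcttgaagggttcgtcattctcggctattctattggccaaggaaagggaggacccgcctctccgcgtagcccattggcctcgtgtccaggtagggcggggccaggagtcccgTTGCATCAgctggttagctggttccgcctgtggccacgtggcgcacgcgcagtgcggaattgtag
Yars, chr4:129189653-129189952, plus strand: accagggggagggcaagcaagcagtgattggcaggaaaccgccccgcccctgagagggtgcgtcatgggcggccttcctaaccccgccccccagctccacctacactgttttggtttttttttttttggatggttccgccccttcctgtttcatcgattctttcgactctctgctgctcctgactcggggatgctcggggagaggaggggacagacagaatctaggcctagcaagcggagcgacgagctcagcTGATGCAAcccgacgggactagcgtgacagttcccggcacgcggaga
Aars, chr8:111033592-111033891, plus strand: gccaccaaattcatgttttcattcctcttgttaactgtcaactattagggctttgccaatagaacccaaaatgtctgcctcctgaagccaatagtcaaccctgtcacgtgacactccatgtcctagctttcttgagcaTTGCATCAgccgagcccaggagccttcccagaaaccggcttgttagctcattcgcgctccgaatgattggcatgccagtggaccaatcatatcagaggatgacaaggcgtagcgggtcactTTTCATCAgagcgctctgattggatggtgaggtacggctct
Iars, chr13:49681880-49682179, plus strand: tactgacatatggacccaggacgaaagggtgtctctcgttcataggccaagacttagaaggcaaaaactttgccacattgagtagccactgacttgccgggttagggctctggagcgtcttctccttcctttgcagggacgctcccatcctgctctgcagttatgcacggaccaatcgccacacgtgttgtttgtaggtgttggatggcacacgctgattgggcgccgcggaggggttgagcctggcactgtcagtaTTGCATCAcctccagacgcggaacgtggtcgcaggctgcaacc
Gars, chr6:55037751-55038050, plus strand: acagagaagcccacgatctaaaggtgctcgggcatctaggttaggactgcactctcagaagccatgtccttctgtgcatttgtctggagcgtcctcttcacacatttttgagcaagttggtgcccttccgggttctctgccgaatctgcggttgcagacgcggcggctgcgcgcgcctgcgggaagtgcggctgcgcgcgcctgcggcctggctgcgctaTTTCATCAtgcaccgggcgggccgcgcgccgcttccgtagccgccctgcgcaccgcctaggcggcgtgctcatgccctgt

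The response to MG132 shows how charging enzymes of the 2 compartments behave when the proteasome is blocked. Cytosolic enzymes mostly rose and mitochondrial enzymes mostly fell, in cells of both genotypes. In CHOP-/- cells the median log2 change of the 19 cytosolic enzymes was 0.57, with 15 that rose and 0 that fell. That of the 16 mitochondrial enzymes was -0.34, with 1 that rose and 9 that fell. Of all genes tested in CHOP-/- cells 62.5% passed, 25.7% as rises and 36.8% as falls, and their median change was -0.07. In CHOP+/+ cells the cytosolic median was 0.47, with 15 that rose and 1 that fell, and the mitochondrial median was -0.43, with 1 that rose and 12 that fell. Of all genes tested in CHOP+/+ cells 64.1% passed, 27.2% as rises and 36.9% as falls, and their median change was -0.07 too. All 4 treated arrays lay above all 4 untreated ones for 15 cytosolic and 1 mitochondrial enzymes in CHOP-/- cells, and below them for 0 and 8, where 24.1% of all genes lay above and 34.2% below. In CHOP+/+ cells they lay above for 13 cytosolic and 1 mitochondrial enzymes, and below for 0 and 10, where 23.3% of all genes lay above and 33.3% below.

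Relative to the median of all genes, the cytosolic median stood at 0.64 in CHOP-/- and 0.54 in CHOP+/+ cells, and the mitochondrial median at -0.27 and -0.36 in the same order of genotypes. The medians of the 2 classes differed by 0.92 in CHOP-/- cells (SD 0.04 over the 4 treated arrays) and by 0.90 in CHOP+/+ cells (SD 0.09). The same 13 cytosolic enzymes rose in both genotypes (Aars, Cars, Eprs, Gars, Iars, Lars, Nars, Qars, Rars, Sars, Tars, Wars and Yars), where 18.7% of all genes did. The same 8 mitochondrial enzymes fell in both (Cars2, Ears2, Iars2, Lars2, Nars2, Pars2, Rars2 and Wars2), where 27.8% of all genes did.

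How many genes were called in each direction moved with array scaling. Centring the arrays on the median of the genes tested, a setting chosen after seeing the data, moved the median of all genes to 0.07 in CHOP-/- and 0.13 in CHOP+/+ cells. The share of calls that were rises then became 55.8%, against 41.2% without it, in CHOP-/- cells, and 61.6%, against 42.4% without it, in CHOP+/+ cells. Under that scaling 17 cytosolic enzymes rose and 0 fell in each genotype, and among mitochondrial enzymes 2 rose and 7 fell in CHOP-/- cells and 2 rose and 6 fell in CHOP+/+ cells. The 13 cytosolic enzymes named above rose in both genotypes under all 4 scalings (as deposited, quantile normalisation, centring on the median of all probe sets, and centring on the tested genes), and Iars2, Lars2, Rars2 and Wars2 fell in both under all 4.

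**Figure D1:**
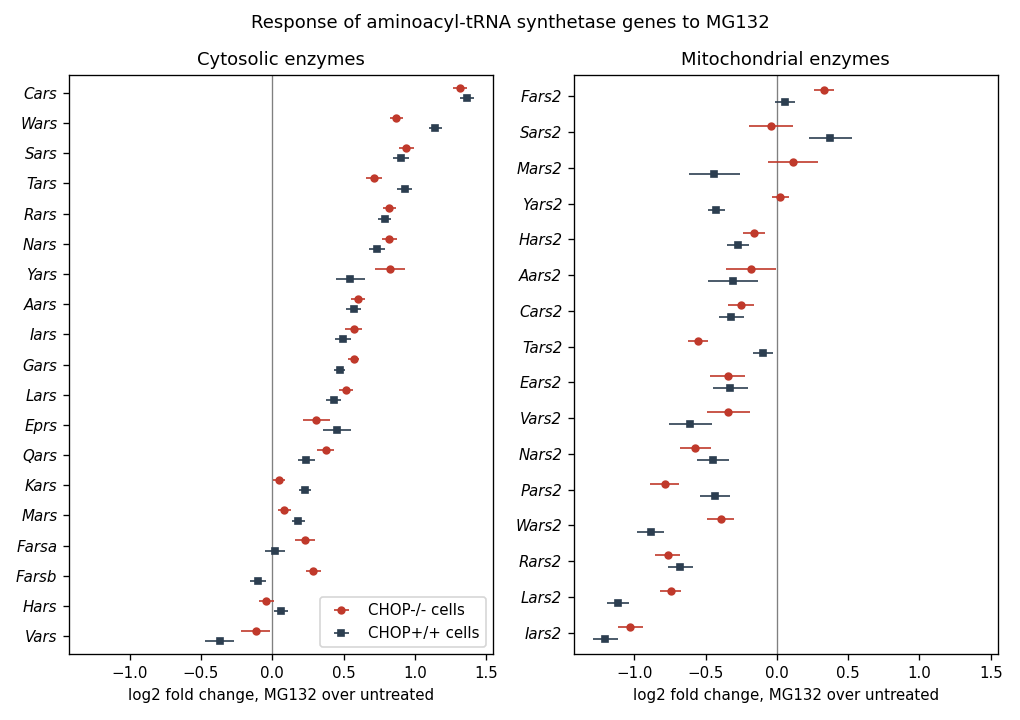
Log2 change with MG132 (horizontal axis) of each cytosolic and mitochondrial enzyme, with CHOP-/- cells as circles and CHOP+/+ cells as squares and bars of 1 SE, n = 4 arrays per group. Most cytosolic enzymes lie to the right of 0, led by Cars at 1.32 in CHOP-/- and 1.37 in CHOP+/+ cells, and most mitochondrial enzymes to the left, down to Iars2 at -1.03 in CHOP-/- and -1.20 in CHOP+/+ cells.

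Array by array, the 19 cytosolic enzymes averaged 0.49, 0.52, 0.51 and 0.54 log2 units above the untreated mean of their genotype on the 4 treated CHOP-/- arrays, and 0.47, 0.46, 0.49 and 0.50 on the 4 treated CHOP+/+ arrays. The 16 mitochondrial enzymes averaged -0.41, -0.37, -0.29 and -0.36 on the treated CHOP-/- arrays and -0.43, -0.42, -0.51 and -0.43 on the treated CHOP+/+ arrays. Untreated arrays stayed between -0.03 and 0.04 for both classes, so each of the 8 treated arrays lay outside their range.

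**Figure D2:**
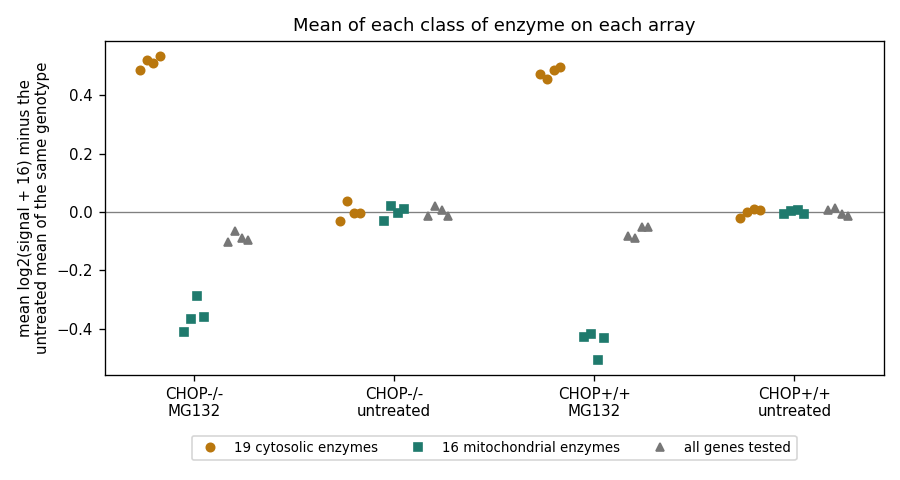
Mean log2(signal + 16) of the cytosolic enzymes, the mitochondrial enzymes and all genes tested on each of the 16 arrays, relative to the untreated mean of the same genotype. On the 8 treated arrays the cytosolic mean lies between 0.46 and 0.54 and the mitochondrial mean between -0.51 and -0.29.

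Cars, which charges cysteine, had the largest rise of the family in both genotypes. Its signals were 7036, 7255, 7203 and 7907 in MG132-treated CHOP-/- cells, against 3027, 2926, 2831 and 2973 in untreated CHOP-/- cells, a change of 1.32 (SE 0.05). They were 6921, 6754, 7276 and 6865 in MG132-treated CHOP+/+ cells, against 2518, 2809, 2697 and 2729 in untreated CHOP+/+ cells, a change of 1.37 (SE 0.05). Treated arrays of either genotype lay above every untreated one, and the difference between the changes, -0.05 (SE 0.07), did not pass (limma adjusted p = 0.636).

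Sars, the serine enzyme, gave 19261, 20075, 18924 and 19526 in MG132-treated CHOP-/- cells, against 10147, 10226, 10006 and 10091 in untreated CHOP-/- cells. It gave 18504, 17709.5, 18174 and 17856 in MG132-treated CHOP+/+ cells, against 8242, 9847, 10454 and 10263 in untreated CHOP+/+ cells. The treated arrays were all above the untreated ones, by 0.94 (SE 0.06) in CHOP-/- and 0.90 (SE 0.06) in CHOP+/+ cells. Wars, the tryptophan enzyme, had signals of 4817, 5200.4, 5029.8 and 4962 in MG132-treated CHOP-/- cells, against 2761, 2745, 2660.0 and 2738 in untreated CHOP-/- cells. Signals of Wars were 5958, 6184, 6469.9 and 6253 in MG132-treated CHOP+/+ cells, against 2834, 2921, 2603 and 2858 in untreated CHOP+/+ cells. Untreated arrays of the genotypes overlapped and the treated CHOP+/+ arrays were the highest, and the rise was 0.87 (SE 0.05) in CHOP-/- and 1.14 (SE 0.05) in CHOP+/+ cells.

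Tars, the threonine enzyme whose promoter holds a match just upstream of the start, read 17356, 17518, 17787 and 18646 in MG132-treated CHOP-/- cells, against 9872, 10907, 12060.4 and 10726 in untreated CHOP-/- cells. The same gene read 11998, 12064, 13265 and 13106 in MG132-treated CHOP+/+ cells, against 6431, 6458, 7000.2 and 6555 in untreated CHOP+/+ cells. It rose by 0.71 (SE 0.05) in CHOP-/- and 0.93 (SE 0.05) in CHOP+/+ cells, and even the untreated CHOP-/- arrays lay well above the untreated CHOP+/+ ones. Yars, the tyrosine enzyme, read 5643, 4887, 4546 and 4718 in MG132-treated CHOP-/- cells, against 2422, 3406, 2373 and 3029 in untreated CHOP-/- cells. For Yars the values were 3749.6, 4119.7, 4835 and 4067 in MG132-treated CHOP+/+ cells, against 2935, 2865, 2487 and 3153 in untreated CHOP+/+ cells. Treated and untreated arrays did not overlap, with a rise of 0.83 (SE 0.10) in CHOP-/- and 0.55 (SE 0.10) in CHOP+/+ cells.

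**Figure D3:**
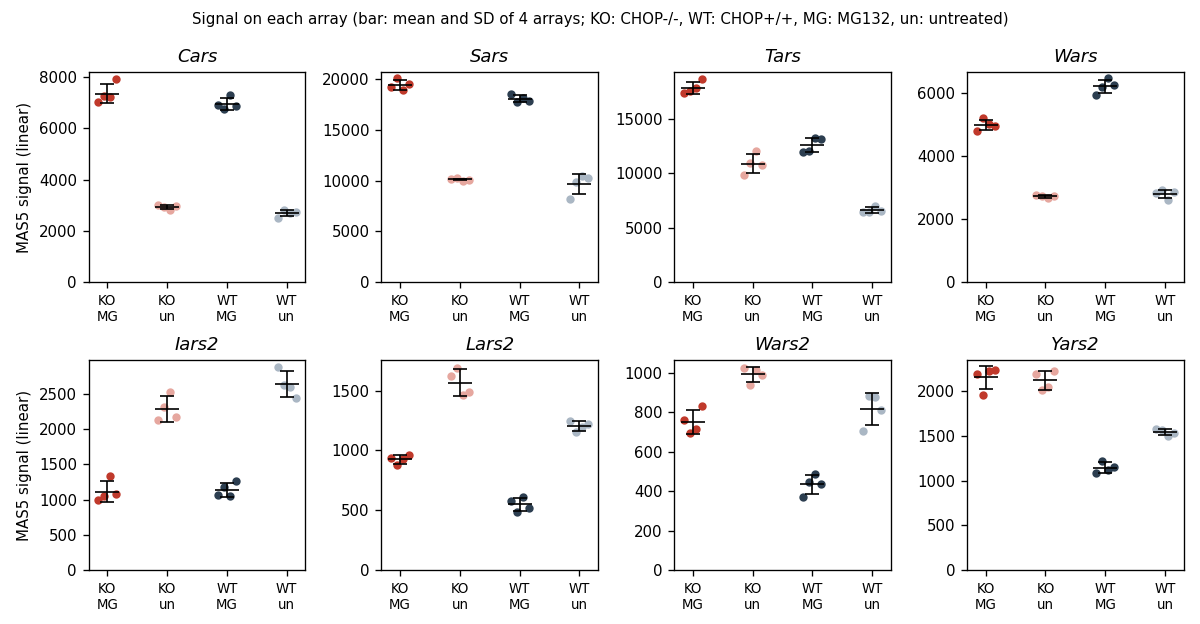
MAS5 signal (linear, from 0) of 4 cytosolic and 4 mitochondrial enzymes on each array, with the mean and SD of 4 arrays per group. Cars, Sars, Tars and Wars are higher with MG132 in both genotypes, Iars2, Lars2 and Wars2 are lower, and Yars2 is lower with MG132 in CHOP+/+ cells, where it averaged 1144 in treated and 1542 in untreated cells.

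Of the other cytosolic enzymes that rose in both genotypes, Rars (arginine) averaged 24733 ± 815 in MG132-treated and 14006 ± 413 in untreated CHOP-/- cells, and 19769 ± 1094 in MG132-treated and 11416 ± 491 in untreated CHOP+/+ cells (SD, n = 4 each). Nars, for asparagine, averaged 33185 ± 542 in MG132-treated and 18788 ± 623 in untreated CHOP-/- cells, and 29740.2 ± 1514 in MG132-treated and 17918 ± 1622 in untreated CHOP+/+ cells. Their rises were 0.82 and 0.82 in CHOP-/- and 0.79 and 0.73 in CHOP+/+ cells. Aars, for alanine, rose by 0.60 (SE 0.05) in CHOP-/- and 0.57 (SE 0.05) in CHOP+/+ cells. Gars, for glycine, rose by 0.57 (SE 0.04) and 0.47 (SE 0.04), and Lars, for leucine, by 0.52 (SE 0.05) and 0.43 (SE 0.05), CHOP-/- first. Iars, the cytosolic isoleucine enzyme, read 16228, 17197, 18695 and 17283 in MG132-treated CHOP-/- cells, against 11757, 11686, 11765 and 11410.5 in untreated CHOP-/- cells. Iars read 13252, 13553, 14050.5 and 16351 in MG132-treated CHOP+/+ cells, against 10371, 9414, 10564 and 10076 in untreated CHOP+/+ cells, again without overlap. Eprs rose by 0.31 (SE 0.10) in CHOP-/- and 0.45 (SE 0.10) in CHOP+/+ cells, where treated and untreated arrays overlapped, and Qars, for glutamine, by 0.38 (SE 0.06) and 0.24 (SE 0.06), with overlap in CHOP+/+ cells too. The mean of all probe sets gave -0.058 for Qars in CHOP+/+ cells and 0.21 for Eprs in CHOP-/- cells (limma adjusted p = 0.108), and neither passed. Each mean includes a dim probe set, above the array median on 0 of 16 arrays for Qars, at -0.54, and on 4 for Eprs, at -0.24. The brighter further probe sets gave 0.20 without overlap and -0.13 with overlap for Qars. Those of Eprs gave 0.36 and 0.41, both without overlap, and none of these values was tested.

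By place in the cell's machinery, the 7 measured enzymes of the multisynthetase complex (Eprs, Iars, Kars, Lars, Mars, Qars and Rars) rose in 5 of 7 in CHOP-/- and 7 of 7 in CHOP+/+ cells. Their medians were 0.38 in CHOP-/- and 0.43 in CHOP+/+ cells. Of all genes tested 25.7% rose in CHOP-/- and 27.2% in CHOP+/+ cells. The 12 enzymes outside the complex rose in 10 in CHOP-/- and 8 in CHOP+/+ cells, with medians of 0.66 and 0.56, and the difference between these kinds was not tested. Among the 3 scaffold proteins of the complex, only Aimp2 rose in CHOP-/- cells, by 0.18 (SE 0.04), and only Eef1e1 in CHOP+/+ cells, by 0.31 (SE 0.04). Aimp1 changed by 0.07 in CHOP-/- and 0.09 in CHOP+/+ cells, and did not pass in either.

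Of the cytosolic enzymes 6 did not follow in both genotypes. Vars, the valine enzyme, gave 3339.7, 4173, 3659 and 3627 in MG132-treated CHOP-/- cells, against 3845, 4400.1, 3733 and 4049 in untreated CHOP-/- cells, a change of -0.12 (SE 0.10) with limma adjusted p = 0.33. It gave 3236, 3564, 2697 and 3122 in MG132-treated CHOP+/+ cells, against 5048, 3971, 3346 and 4058 in untreated CHOP+/+ cells, and the fall of -0.37 (SE 0.10) was the only one in the class. That call was lost under centring on the tested genes, at -0.17 with adjusted p = 0.101, and the groups overlapped. Hars, for histidine, passed in neither, at -0.04 (SE 0.05) in CHOP-/- and 0.06 (SE 0.05) in CHOP+/+ cells, although without suffixed probe sets, those whose name marks matches to further transcripts, its CHOP+/+ value of 0.24 passed. Kars, the lysine enzyme, read 15374, 14955, 14787 and 15411 in MG132-treated CHOP-/- cells, against 14521, 14870.0, 15408 and 13860.5 in untreated CHOP-/- cells. Kars read 11906, 11296, 11655 and 11868 in MG132-treated CHOP+/+ cells, against 9711, 10106, 10247 and 9737 in untreated CHOP+/+ cells, so that it rose by 0.23 (SE 0.04) in CHOP+/+ cells, where the groups did not overlap, and gave 0.05 in CHOP-/- cells. Mars, for methionine, gave 0.08 (SE 0.04) in CHOP-/- cells and rose by 0.18 (SE 0.04) in CHOP+/+ cells, a call lost under median centring of the arrays, at 0.13.

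The subunits of the cytosolic phenylalanine enzyme rose in CHOP-/- cells and did not pass in CHOP+/+ cells. Farsa averaged 6699.9 ± 422 in MG132-treated and 5719 ± 295 in untreated CHOP-/- cells, and 3237 ± 211 in MG132-treated and 3196 ± 335 in untreated CHOP+/+ cells, with changes of 0.23 in CHOP-/- and 0.02 in CHOP+/+ cells. Farsb read 9521, 10608, 10545 and 11071 in MG132-treated CHOP-/- cells, against 8373, 8319, 9061 and 8368 in untreated CHOP-/- cells. It read 8141, 6981, 7119 and 7445 in MG132-treated CHOP+/+ cells, against 7857, 7697, 8232 and 8000.1 in untreated CHOP+/+ cells, with changes of 0.29 in CHOP-/- and -0.10 in CHOP+/+ cells. Both genes were read from suffixed probe sets. Without these Farsa gave 0.24 with limma adjusted p = 0.540 and Farsb turned to -0.17 with adjusted p = 0.291 in CHOP-/- cells. The probe sets then read were far dimmer. In treated and untreated CHOP-/- cells they averaged 151 and 127 for Farsa, and 300 and 339 for Farsb. Brighter further probe sets of Farsb, also suffixed, changed there by 0.22 without overlap and 0.21 with overlap, and were not tested.

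Iars2, the mitochondrial isoleucine enzyme, had the largest fall of the family in both genotypes, and Lars2, for leucine, the next largest in CHOP+/+ cells. Iars2 gave 995, 1048, 1333 and 1088 in MG132-treated CHOP-/- cells, against 2129, 2312, 2531 and 2166 in untreated CHOP-/- cells. Iars2 gave 1062, 1176, 1048 and 1266 in MG132-treated CHOP+/+ cells, against 2879.6, 2631, 2599 and 2444 in untreated CHOP+/+ cells, so that every treated array lay below every untreated one. The fall was -1.03 (SE 0.09) in CHOP-/- and -1.20 (SE 0.09) in CHOP+/+ cells, but a second, dimmer probe set of the gene changed by -0.04 and 0.42 in the same order, and the mean of both probe sets did not pass in either genotype. Lars2 gave 937, 875, 927 and 962 in MG132-treated CHOP-/- cells, against 1625, 1692, 1460.0 and 1485 in untreated CHOP-/- cells. Lars2 gave 580.1, 490.3, 608 and 519 in MG132-treated CHOP+/+ cells, against 1249, 1156, 1195 and 1224 in untreated CHOP+/+ cells, again with no overlap. Its log2 changes were -0.75 (SE 0.07) in CHOP-/- and -1.12 (SE 0.07) in CHOP+/+ cells.

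Wars2, the tryptophan enzyme, read 761, 693, 714 and 833 in MG132-treated CHOP-/- cells, against 1023, 938, 1014 and 986 in untreated CHOP-/- cells. It read 370.2, 446, 487 and 438 in MG132-treated CHOP+/+ cells, against 705, 879.7, 876 and 809 in untreated CHOP+/+ cells, with falls of -0.40 (SE 0.09) in CHOP-/- and -0.89 (SE 0.09) in CHOP+/+ cells and no overlap. Rars2, for arginine, read 1353, 1107, 1213 and 927 in MG132-treated CHOP-/- cells, against 1976, 1865, 2120.4 and 1845 in untreated CHOP-/- cells. In the other genotype Rars2 read 1247, 1122, 1075 and 1084 in MG132-treated CHOP+/+ cells, against 1796, 1814, 1850.1 and 1805 in untreated CHOP+/+ cells, and its falls of -0.77 (SE 0.09) in CHOP-/- and -0.68 (SE 0.09) in CHOP+/+ cells were of similar size. Pars2, for proline, read 312, 350.3, 339 and 307 in MG132-treated CHOP-/- cells, against 516, 579, 588 and 624 in untreated CHOP-/- cells. It read 438, 353, 350.3 and 454 in MG132-treated CHOP+/+ cells, against 533, 519, 585 and 529.5 in untreated CHOP+/+ cells, with falls of -0.79 (SE 0.10) and -0.44 (SE 0.10), in CHOP-/- and CHOP+/+ cells. Nars2, for asparagine, read 716, 691, 949.6 and 645 in MG132-treated CHOP-/- cells, against 1012, 1214, 1259 and 984 in untreated CHOP-/- cells. Nars2 read 822, 870.3, 1017 and 772 in MG132-treated CHOP+/+ cells, against 1103, 1244, 1157 and 1249 in untreated CHOP+/+ cells, with falls of -0.57 (SE 0.11) in CHOP-/- and -0.45 (SE 0.11) in CHOP+/+ cells. In CHOP+/+ cells Pars2 and Nars2 lost their calls under centring on the tested genes, with limma adjusted p = 0.0591 and 0.0653, and Nars2 also as a mean of its probe sets.

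Cars2 and Ears2 fell in both genotypes by less. Cars2, for cysteine, read 794, 816, 962 and 768 in MG132-treated CHOP-/- cells, against 871, 1006, 1096 and 1014 in untreated CHOP-/- cells. Cars2 read 571, 567, 548 and 581 in MG132-treated CHOP+/+ cells, against 649.7, 752, 664 and 790.2 in untreated CHOP+/+ cells. The falls were -0.25 (SE 0.09) in CHOP-/- cells, where the arrays overlapped, and -0.32 (SE 0.09) in CHOP+/+ cells, where they did not. Ears2, for glutamate, read 258, 266, 212 and 239.6 in MG132-treated CHOP-/- cells, against 308, 328, 290.1 and 329.5 in untreated CHOP-/- cells. Ears2 read 314, 311, 247 and 319 in MG132-treated CHOP+/+ cells, against 377, 316, 388 and 429 in untreated CHOP+/+ cells. Its falls were -0.35 (SE 0.12) in CHOP-/- cells, without overlap, and -0.33 (SE 0.12) in CHOP+/+ cells, with overlap.

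Both of these genes lost their calls in both genotypes under centring on the tested genes, and in CHOP-/- cells also under quantile normalisation (-0.14 for Cars2 and -0.20 for Ears2). In CHOP-/- cells the call of Cars2 was also lost without treated replicate 1, treated replicate 4 or untreated replicate 3 (-0.20 to -0.23), and that of Ears2 without treated replicate 3 (-0.28). In CHOP+/+ cells the call of Ears2 was lost without treated replicate 3 or untreated replicates 3 or 4, with values of -0.24 to -0.31.

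A further 4 mitochondrial enzymes fell in CHOP+/+ cells and did not pass in CHOP-/- cells. Yars2, the tyrosine enzyme, read 2186, 1961, 2229 and 2236 in MG132-treated CHOP-/- cells, against 2185, 2009, 2049 and 2229 in untreated CHOP-/- cells, a change of 0.02 (SE 0.06). It read 1085, 1223, 1118 and 1152 in MG132-treated CHOP+/+ cells, against 1575, 1564, 1494 and 1536 in untreated CHOP+/+ cells, a fall of -0.43 (SE 0.06) without overlap. Vars2, for valine, read 237, 273, 332 and 329.5 in MG132-treated CHOP-/- cells, against 465, 369, 318 and 352 in untreated CHOP-/- cells, at -0.34 (SE 0.15) with limma adjusted p = 0.0538. It read 288, 255, 339.6 and 231 in MG132-treated CHOP+/+ cells, against 464, 355, 407 and 502 in untreated CHOP+/+ cells, at -0.61 (SE 0.15) and without overlap. In CHOP-/- cells the further probe set of Vars2 changed by -0.81 without overlap. The mean of its probe sets there, -0.57, passed (limma adjusted p = 0.0116), and the probe set used passed in some fits that left out 1 array. Hars2, for histidine, read 1030.1, 973, 1189 and 1045 in MG132-treated CHOP-/- cells, against 1161, 1188, 1233 and 1155 in untreated CHOP-/- cells. Hars2 read 943, 946, 905 and 1022 in MG132-treated CHOP+/+ cells, against 1132, 1227, 1280.1 and 1007 in untreated CHOP+/+ cells, at -0.16 (SE 0.08) in CHOP-/- and -0.28 (SE 0.08) in CHOP+/+ cells, and the groups overlapped in both. Mars2, for methionine, was dim, with 146, 211, 160.2 and 129.6 in MG132-treated CHOP-/- cells, against 127, 125, 145 and 196 in untreated CHOP-/- cells. Mars2 read 159, 159.6, 125 and 194 in MG132-treated CHOP+/+ cells, against 214, 218, 228 and 217 in untreated CHOP+/+ cells, where it fell, at -0.44 (SE 0.18) with limma adjusted p = 0.0373. That call was lost in 7 of 16 fits that left out 1 array, and those of Hars2 and Mars2 under centring on the tested genes. Hars2 also lost its call under quantile normalisation, at -0.17, and without suffixed probe sets, at -0.07.

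Tars2, for threonine, fell in CHOP-/- cells and did not pass in CHOP+/+ cells. It read 1737, 1866, 1799 and 1885 in MG132-treated CHOP-/- cells, against 2572, 2843, 2561 and 2749 in untreated CHOP-/- cells, a change of -0.55 (SE 0.07) without overlap. It read 1837, 2170.0, 2065 and 2006 in MG132-treated CHOP+/+ cells, against 2344, 2332, 2078 and 1909 in untreated CHOP+/+ cells, a change of -0.10 (SE 0.07). In CHOP+/+ cells the further probe set of Tars2 changed by -0.23 without overlap, and the mean of its probe sets, -0.16, passed (limma adjusted p = 0.0146). Fars2, the mitochondrial phenylalanine enzyme, was the only mitochondrial member that rose in CHOP-/- cells. It read 1393, 1457, 1365 and 1383 in MG132-treated CHOP-/- cells, against 1153, 1055, 1108 and 1116 in untreated CHOP-/- cells, a change of 0.33 (SE 0.07) without overlap. It read 1392, 1283, 1201 and 1261 in MG132-treated CHOP+/+ cells, against 1084, 1283, 1376 and 1215 in untreated CHOP+/+ cells, a change of 0.05 (SE 0.07). Sars2, the serine enzyme, was the only one that rose in CHOP+/+ cells, with 459, 577, 457 and 503 in MG132-treated CHOP+/+ cells, against 439, 349.7, 348 and 388 in untreated CHOP+/+ cells and a change of 0.37 (SE 0.15). In the knockout Sars2 read 239.8, 383, 340.5 and 398 in MG132-treated CHOP-/- cells, against 281, 447, 339 and 328 in untreated CHOP-/- cells, a change of -0.04 (SE 0.15). The rise of Sars2 was lost in 5 of 16 fits that left out 1 array, and under median centring, at 0.32. Without the filter on low signals, the CHOP+/+ calls of Ears2, Mars2 and Sars2 were lost, with limma adjusted p = 0.0559, 0.0799 and 0.0673. Aars2, for alanine, passed in neither genotype, at -0.18 (SE 0.17) in CHOP-/- and -0.31 (SE 0.17) in CHOP+/+ cells.

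Set side by side for the same amino acid, the change of the cytosolic gene lay above that of its mitochondrial counterpart in 14 of 17 pairs in CHOP-/- and 15 of 17 pairs in CHOP+/+ cells. These pairs share genes, since Fars2 and Eprs each enter 2 of them. The pairs Farsa with Fars2 and Farsb with Fars2 ran the other way in both genotypes, and Mars with Mars2 in CHOP-/- cells. The widest gaps were those of isoleucine in CHOP-/- cells, with 0.57 for Iars and -1.03 for Iars2, and of tryptophan in CHOP+/+ cells, with 1.14 for Wars and -0.89 for Wars2.

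Whether the response depends on CHOP is the question named in the title of the series. Of the 35 enzymes 9 differed between the 2 responses, 25.7% of them, against 28.3% of all genes tested, so the share was near that of all genes. The response was higher in CHOP-/- than in CHOP+/+ cells for Farsb, Fars2, Lars2, Wars2 and Yars2, and lower for Kars, Tars, Wars and Tars2. The difference, knockout minus wild-type, was 0.39 (SE 0.08) for Farsb with limma adjusted p = 0.000656, 0.49 (SE 0.13) for Wars2 with 0.00787, 0.45 (SE 0.08) for Yars2 with 0.000445 and 0.37 (SE 0.11) for Lars2 with 0.0121. It was 0.28 (SE 0.10) for Fars2 with 0.0409, a call lost in 12 of 16 fits that left out 1 array. On the other side it was -0.46 (SE 0.10) for Tars2 with 0.0014, -0.27 (SE 0.07) for Wars with 0.00349, -0.19 (SE 0.06) for Kars with 0.0189 and -0.22 (SE 0.08) for Tars with 0.0417. The call of Tars was lost in 11 of 16 such fits.

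These 4 lower calls were all lost when arrays were centred on their medians over all probe sets, at -0.36 for Tars2, -0.18 for Wars, -0.12 for Tars and -0.09 for Kars, with limma adjusted p between 0.0529 and 0.491. That scaling turned the split of such calls over all genes to 69.7% higher, against 50.1% without it, and centring on the tested genes turned it to 38.6%. Farsb, Lars2, Wars2 and Yars2 passed under all 4 scalings. Without suffixed probe sets Farsb gave 0.08 and Wars -0.17, and the mean of all probe sets gave 0.18 for Lars2, and none of these 3 values passed. That mean gave -0.52 for Eprs, which then passed with limma adjusted p = 0.0168. The 0.08 came from the dimmest probe set of Farsb, and brighter further ones gave 0.17 and 0.24. For Eprs a probe set above the array median on 4 of 16 arrays gave -1.36, and brighter further ones gave -0.36 and -0.23. Values of these further probe sets were not tested. The further probe set of Tars2 by itself gave a difference of -0.23, which was not tested. Of the 13 cytosolic genes that rose in both genotypes, 11 did not pass the test of the difference, among them Cars at -0.05 (SE 0.07), Rars at 0.03 (SE 0.06), Sars at 0.04 (SE 0.08) and Aars at 0.03 (SE 0.07).

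The genotypes themselves differed in many of these genes at both treatments, but the share that differed in either direction was near that of all genes. With MG132, 15 enzymes were higher and 6 lower in CHOP-/- than in CHOP+/+ cells, where 30.7% of all genes were higher, 28.1% lower and 58.8% either. Without treatment 15 were higher and 4 lower, where 28.6% of all genes were higher, 26.9% lower and 55.6% either. The CHOP-/- arrays lay all above the CHOP+/+ arrays for 15 enzymes and all below for 5 with MG132, where 27.9% and 25.5% of all genes did. Untreated they lay all above for 15 and all below for 2, where 25.4% and 24.3% of all genes did. Median centring made 63.4% of the calls with MG132 over all genes higher, against 52.3% without it. The cytosolic median stood at 0.28 with MG132 and 0.13 without, and the mitochondrial median at 0.04 and 0.01. The cytosolic enzymes Aars, Farsa, Gars, Iars, Kars, Lars, Qars, Rars and Tars were higher in CHOP-/- cells at both treatments. So were the mitochondrial enzymes Cars2, Lars2, Wars2 and Yars2, and Eprs and Mars were lower at both. The share of all genes called alike at both treatments was not counted. The mean of all probe sets gave 0.20 with MG132 and 0.052 untreated for Cars2, and neither passed (limma adjusted p = 0.157 and 0.740), nor did 0.18 untreated without suffixed probe sets. That mean includes a probe set above the array median on 0 of 16 arrays, at -0.41 with MG132 and -0.50 untreated. The probe set without a suffix that lay above it on 16 of 16 gave 0.47 with MG132, without overlap. The treated and the untreated contrasts share no arrays.

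Among the enzymes higher in CHOP-/- cells, Farsa led. Its signals with MG132 were 6510.4, 7026, 6194 and 7069 in CHOP-/- cells and 3223, 3429, 2947 and 3350.0 in CHOP+/+ cells. Untreated, they were 5375, 5876, 5589 and 6037 in CHOP-/- cells and 2734, 3493, 3174 and 3384 in CHOP+/+ cells, and no CHOP-/- array overlapped with a CHOP+/+ array. The differences were 1.05 (SE 0.07) with MG132 and 0.84 (SE 0.07) without, but 0.22 and 0.09 without suffixed probe sets, which did not pass. The probe set then read was dim, with group means of 112 to 151, where array medians lay between 90.1 and 113. Yars2 was higher by 0.90 (SE 0.06) with MG132 and 0.45 (SE 0.06) without, Lars2 by 0.74 (SE 0.07) and 0.37 (SE 0.07), Tars by 0.50 (SE 0.05) and 0.72 (SE 0.05), and Kars by 0.37 (SE 0.04) and 0.56 (SE 0.04).

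Mars was the member that stood lowest in the knockout. With MG132 it read 4469, 4609, 4913 and 4465 in CHOP-/- cells and 8855, 8272, 8822 and 8768 in CHOP+/+ cells. Untreated it read 4479, 4295, 4329 and 4302 in CHOP-/- cells and 7199, 7669, 7845 and 7874 in CHOP+/+ cells. The groups were far apart at both treatments, at -0.91 (SE 0.04) with MG132 and -0.81 (SE 0.04) without. Eprs was lower, at -0.42 (SE 0.10) with MG132 and -0.27 (SE 0.10) without, but the untreated call was lost without untreated CHOP+/+ replicate 1, at -0.13, or untreated CHOP-/- replicate 3, at -0.24. That call was also lost under median centring and with only the groups compared (limma adjusted p = 0.0632 and 0.0601). Further probe sets of Eprs differed by 0.02 and -0.88 in untreated cells, and a dim one by -0.31. Hars was called lower with MG132, at -0.20, from a suffixed probe set, and its other probe set turned that to 0.20, which passed as higher. With 1 array left out, the call of Wars2 as higher in untreated cells was lost without untreated CHOP+/+ replicate 1, at 0.21, and that of Qars in 6 of 16 fits.

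**Figure D4:**
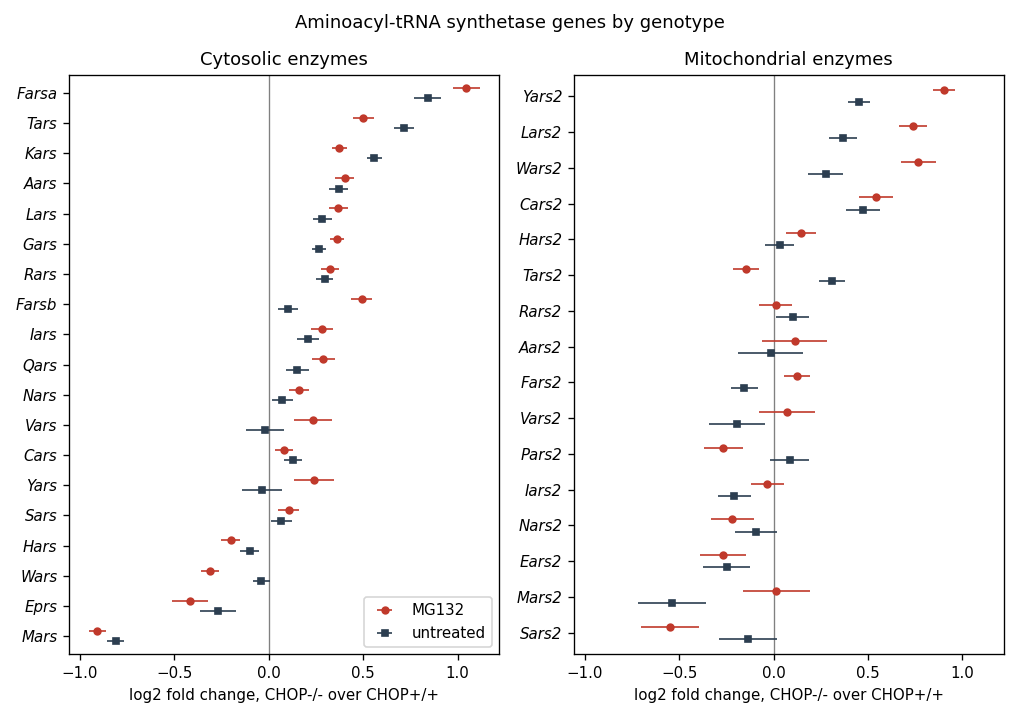
Log2 difference between CHOP-/- and CHOP+/+ cells (horizontal axis) of each enzyme, with MG132 as circles and untreated as squares and bars of 1 SE, n = 4 arrays per group. Farsa at 1.05 with MG132 and 0.84 untreated, and Mars at -0.91 and -0.81, mark the ends of the cytosolic class.

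Other genes of tRNA charging came from 6 lists. Of the 4 measured genes that form charged tRNA in mitochondria beside the synthetases, 0 rose, 4 fell in CHOP-/- and 3 fell in CHOP+/+ cells, where 36.8% of all genes fell in CHOP-/- and 36.9% in CHOP+/+ cells. Gatc and Qrsl1 encode subunits of the amidotransferase that makes glutaminyl-tRNA, and Mtfmt formylates the initiator tRNA. Gatc fell, at -1.01 (SE 0.09) in CHOP-/- and -1.18 (SE 0.09) in CHOP+/+ cells, Mtfmt at -0.98 (SE 0.08) and -0.64 (SE 0.08), and Qrsl1 at -0.30 (SE 0.06) and -0.37 (SE 0.06). The proofreading genes Dtd1, Aarsd1 and Prorsd1, which clear mischarged tRNA, fell in both genotypes in 3 of 3, where 27.8% of all genes did, with Dtd1 at -0.88 (SE 0.10) in CHOP-/- and -0.83 (SE 0.10) in CHOP+/+ cells. Pstk, a kinase of selenocysteine-tRNA synthesis, fell, at -1.09 (SE 0.10) in CHOP-/- and -0.91 (SE 0.10) in CHOP+/+ cells, while Sepsecs of the same route passed in neither.

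Of 5 measured elongation factor genes that deliver charged tRNA or recharge the carrier, 2 rose and 1 fell in CHOP-/- cells, where 25.7% of all genes rose and 36.8% fell. In CHOP+/+ cells 3 rose and 1 fell, where 27.2% of all genes rose and 36.9% fell. Eef1b2 rose by 0.22 (SE 0.05) in CHOP-/- and 0.23 (SE 0.05) in CHOP+/+ cells, and the mitochondrial factor Tsfm fell, at -0.30 (SE 0.07) and -0.38 (SE 0.07). Among 7 measured genes of the integrated stress response, 1 rose and 2 fell in CHOP-/- cells, shares no higher than the 25.7% and 36.8% of all genes. In CHOP+/+ cells 4 rose and 1 fell, where 27.2% and 36.9% of all genes did. Ddit3, the gene targeted in the knockout, is counted among the 7 and among the 4 that rose, so the 2 counts of rises differ in part through the targeting itself. Atf4 averaged 25059 ± 1120.3 in MG132-treated and 16953 ± 881 in untreated CHOP-/- cells, and 16248 ± 745 in MG132-treated and 11295 ± 924 in untreated CHOP+/+ cells. It rose by 0.56 (SE 0.06) in CHOP-/- and 0.53 (SE 0.06) in CHOP+/+ cells, with no difference between responses passing (0.04, limma adjusted p = 0.776). Atf4 was also higher in CHOP-/- than in CHOP+/+ cells, by 0.62 (SE 0.06) with MG132 and 0.59 (SE 0.06) without. Eif2ak4, which encodes GCN2, the kinase that senses uncharged tRNA, fell, at -0.72 (SE 0.11) in CHOP-/- and -0.58 (SE 0.11) in CHOP+/+ cells.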

How the data were processed

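Per the labels, RNA from each plate was cleaned on a column and labelled by a 3' in vitro transcription kit. The authors made signal intensities with MAS5, per the submitters' processing notes, which name no version. Their deposited table holds 45101 probe sets on 16 arrays on a linear scale, and the mean of each array after trimming 2% at each end was 1000. Replicates were not pooled. Of the probe sets 34945 named 1 gene, 932 several and 9160 none, and 64 were controls. Of the single-gene probe sets 34741 matched RefSeq (GRCm38.p6) by gene ID, with 0 symbols changed. Microarrays have no read depth, and the number of arrays limits the precision.

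Signals were analysed as log2(signal + 16) without further normalisation. limma 3.58.1 in R 4.3.3 fitted 1 coefficient per group over all 16 arrays with a variance trend, with two-sided tests of 5 contrasts and Benjamini-Hochberg adjustment over 11451 genes. The fit was tested on simulated data. All members are named, and array values are given for the 5 largest changes in each response, for genes past the test of the difference, for genes that fell, and for counterparts of the 5. Up to 3 genes of each pathway list are named by smallest adjusted p, with Ddit3. Farsa and Mars by genotype, and other genes given array by array outside this rule, were chosen after their values were seen, as was the split by the multisynthetase complex. Members and lists were chosen with earlier results of these data known. Deviations of same-numbered plates from their group means correlated at -0.070 to 0.161, and in no pair of groups were all 4 correlations over 0.1, so numbers were not treated as pairs. All 4 were positive between the untreated groups, at 0.085 to 0.161, and within CHOP-/- cells, at 0.022 to 0.140. Alternatives covered pseudocounts, filters, scalings, probe set choice, a replicate block, no variance trend, fitting only the groups compared, and leaving out each array. Figures were drawn with matplotlib 3.10.9.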

Additional observations from a re-analysis of the deposited data

Results flagged for a closer look

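On 5 of 140 groups of 4 arrays, 1 array stood apart from the other 3, where chance alone gives about 1 in 20. Farsb read 9061 on untreated CHOP-/- replicate 3, against 8319 to 8373 on the others. Gars read 11122 on untreated CHOP+/+ replicate 1, against 11593 to 11651. In MG132-treated CHOP+/+ cells Hars read 16483 on replicate 3, against 15314 to 15379, Mars read 8272 on replicate 2, against 8768 to 8855, and Ears2 read 247 on replicate 3, against 311 to 319.

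The 9 enzymes whose MG132 responses differed between the genotypes, by the interaction term in limma, had differences (knockout minus wild-type, log2) of 0.39 for Farsb, -0.19 for Kars, -0.22 for Tars, -0.27 for Wars, 0.28 for Fars2, 0.37 for Lars2, -0.46 for Tars2, 0.49 for Wars2 and 0.45 for Yars2.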

How the results depend on the processing

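The gap between the cytosolic and mitochondrial medians kept its direction under every alternative run. In CHOP-/- cells it was 0.87 with a pseudocount of 64, 0.65 under quantile normalisation and 1.02 for the mean of all probe sets, and in CHOP+/+ cells 0.78 under quantile normalisation. Leaving out 1 array gave 0.88 to 0.95 in CHOP-/- and 0.84 to 0.94 in CHOP+/+ cells.

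Counts of enzymes that rose or fell changed as follows; where no reason is given the cause was not tested. In CHOP-/- cells 1 cytosolic enzyme fell under quantile normalisation, and 2 mitochondrial enzymes rose under centring on the tested genes, 2 for the mean of all probe sets and 0 without suffixed probe sets. In CHOP+/+ cells 2 cytosolic enzymes fell under quantile normalisation and 0 under centring on the tested genes. There 0 mitochondrial enzymes rose without a filter or under median centring, and 2 rose and 6 fell under centring on the tested genes. Of the differences between responses, 2 were higher without suffixed probe sets, and under median centring 0 were lower, as were 715 of all genes, against 1616 without it. Untreated, 2 enzymes were lower in CHOP-/- cells under median centring and 2 for the mean of all probe sets.

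Single genes turned with the choice of probe set. The mean of all probe sets gave -0.058 for Qars in the CHOP+/+ response, and -0.15 for Cars and 0.16 for Hars between the untreated genotypes. For Qars it includes a probe set that averaged 32.4 in treated and 54.3 in untreated CHOP+/+ cells. For Cars it includes one that averaged 93 in untreated CHOP-/- and 129 in untreated CHOP+/+ cells, with overlap. Without suffixed probe sets Farsb gave -0.17 in the CHOP-/- response, and Hars 0.20 with MG132 and 0.42 untreated between the genotypes. That value of Farsb came from its dimmest probe set, which averaged 300 in treated and 339 in untreated CHOP-/- cells.

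With the replicate number as a block, counts stayed within 1.5 times, for example 15 cytosolic enzymes that rose in CHOP-/- cells. Among single enzymes the block brought the difference between responses of Farsa past the threshold (limma adjusted p = 0.0395) and took that of Fars2 out (0.0538). Between genotypes it brought in Vars (0.0265) and Nars2 (0.0443) with MG132 and took out Iars2 untreated (0.0532). Leaving out 1 array gave 15 to 15 cytosolic enzymes that rose and 0 to 0 that fell in CHOP-/- cells, with 1 to 1 and 8 to 10 mitochondrial ones. In CHOP+/+ cells it gave 15 to 15 and 1 to 2, with 0 to 1 and 10 to 12 mitochondrial ones. It gave 4 to 6 higher and 3 to 5 lower differences between responses, 15 to 17 and 5 to 7 between genotypes with MG132, and 12 to 16 and 3 to 4 without.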

Other observations

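Further probe sets of the same genes, 27 in 20 genes above the array median on at least 4 arrays, had the sign of the probe set used in 24 cases for the CHOP-/- response and 23 for the CHOP+/+ response. The exceptions were probe sets of Eprs, Farsb and Hars in CHOP-/- cells and of Fars2, Farsb, Iars2 and Qars in CHOP+/+ cells. All 3 further probe sets of Wars had higher signals on every treated than on every untreated array, with log2 differences of 0.70 to 1.04 in CHOP-/- and 0.88 to 1.31 in CHOP+/+ cells. The further probe set of Yars2 averaged 1599 in treated and 1198 in untreated CHOP-/- cells, and 794 in treated and 1152 in untreated CHOP+/+ cells. These values were not tested.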
